A study of Arabidopsis thaliana with 6 samples.

Results

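Cytochrome P450 genes were followed in Arabidopsis thaliana seedlings on 6 Affymetrix ATH1 arrays. Members were chosen by name: a probe set had to name 1 gene, with a symbol made of CYP, digits and a letter. This gave 23 genes, each with 1 probe set, out of 13350 genes measured by a single-gene probe set; the RefSeq gene table holds 236 such CYP symbols, so the members are a small share of the family. Of the 23 genes, 19 belong to the subfamily CYP71B, for which the table holds 36 symbols. The other 4 are CYP78A9, CYP79A2 and CYP84A4, which like CYP71B belong to the large CYP71 clan, and CYP51G2 of the CYP51 clan. All seedlings were of accession Col-0, grown on MS medium and harvested whole at 7 days. The dark group was kept in the dark, the H2O2 group was kept in the dark and treated with 5 mM hydrogen peroxide (H2O2), and the light group grew under 16 h of light and 8 h of dark. Each group had 2 arrays from biological replicates; the sources used here do not say how many seedlings made a sample or when H2O2 was added. The design text gives the reason for the dark: it was to reduce H2O2 made by the plants.

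Cytochromes P450 are heme enzymes, in plants mostly held in the membrane of the endoplasmic reticulum, that activate molecular oxygen with electrons passed from NADPH by a reductase. They put oxygen on hormones, pigments, phenolics, fatty acids and defence compounds, and are named by sequence likeness, with a number for the family and a letter for the subfamily. Genes of the CYP71 clan act largely in specialised metabolism, and many CYP71B genes stand side by side in the genome.

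Light-grown seedlings differed from dark-grown ones in 14 of the 23 P450 genes, or 60.9%, beside 48.0% of all probe sets tested. H2O2-treated seedlings differed from dark-grown ones in 4, or 17.4%, beside 20.5%. CYP71B26 had the largest difference among the members, 14.7-fold higher in light than in the dark, where its level was low. It did not differ detectably with H2O2. CYP71B6, which acts on indole-3-acetonitrile in indole defence metabolism, was highest in the dark, fell with H2O2 and was lowest in light. CYP71B24, dim in the dark and with H2O2, was called lower with H2O2 and higher in light, and CYP71B34 was called higher than in the dark in both. No fall in light against dark was called when the arrays were centred on control RNA. The differences of the members called lower then ran from -0.943 to 0.055. The SE of each was 0.416, against 0.14 to 0.18 as deposited. Each call with H2O2 was lost without some single array, in a fit that leaves 1 array in a group. With the arrays centred on control RNA, the 3 falls with H2O2 stood at 0.047 to 0.132, and none was called.

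In light against dark, 10 members were higher and 4 lower, 60.9% in all, where limma called 48.0% of the 22746 probe sets tested, 23.0% higher and 25.0% lower. With H2O2 against dark, 1 member rose and 3 fell, 17.4%, beside a background of 20.5%, with 12.3% higher and 8.18% lower. In light against H2O2, 9 were higher and 3 lower, 52.2%, beside 39.5%, with 17.4% higher and 22.0% lower. A call is a Benjamini-Hochberg adjusted p under 0.05 over all tested probe sets in limma. The share called among the members with H2O2 lay near the background. In light the median absolute log2 difference of the members was 0.68, against 0.40 over all probe sets; with H2O2 it was 0.15, against 0.23. The signed medians of the members were -0.07 with H2O2 and 0.0001 in light, against -0.02 and -0.06 over all probe sets. Values are log2 expression, on which a difference of 1 is a doubling, and the number of arrays limits their precision. Since the 2 comparisons with the dark share its arrays, they are not independent of each other.

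**Figure D1:**
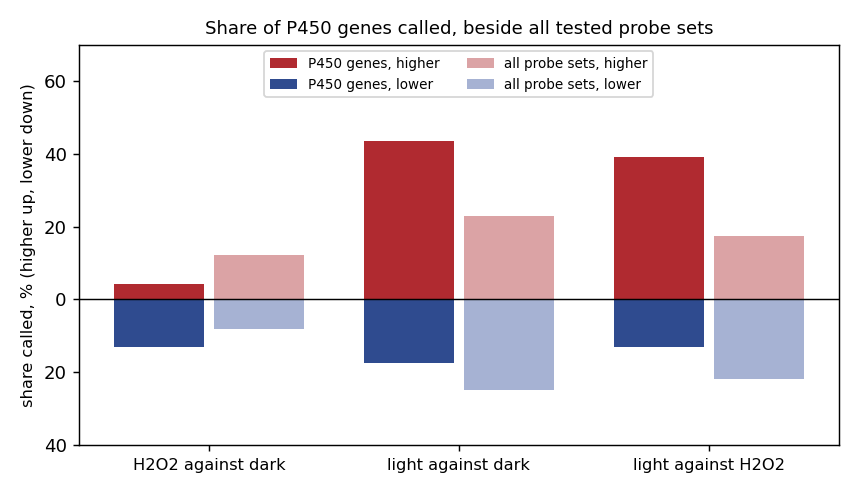
Share of genes called in each comparison, in percent, with those higher drawn upwards and those lower drawn downwards; dark colours are the 23 P450 genes and pale colours all 22746 probe sets tested. Members called higher in light against dark make up 10 of 23, and with H2O2 against dark 1 of 23.

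Replicate arrays were compared, and lists of tissue genes were read as context. The lists were chosen with earlier results of these data known, so they are no independent check of the arrays. A listed gene, here and below, counts as measured if a probe set names it alone. Of the tested probe sets 8730 are unnamed here, so genes not counted may still be on the array. Replicate arrays correlated at r = 0.9927 to 0.9948 over all probe sets. All 10 measured genes of a green tissue list were higher in light, where their mean level was 12.28 and 12.30 on the 2 arrays, against 9.68 and 9.72 in the dark and 9.88 and 10.04 with H2O2. Of 7 root hair genes 4 were measured; all 4 fell with H2O2, and in light 3 were higher and 1 lower. Their mean level was 6.23 and 6.47 in the dark, 4.48 and 4.50 with H2O2, and 6.19 and 6.49 in light. Of 10 seed reserve genes 4 were measured, and all 4 rose with H2O2, from a mean level of 4.44 and 4.74 to 6.81 and 7.02, while light stood at 3.61 and 4.47. No gene of an 8-gene root endodermis list had a single-gene probe set. These tissue lists moved with the groups, and their part in the P450 differences was not tested. In RNA from whole seedlings, fewer cells of a type and less RNA per cell cannot be told apart. Group means below 5.16, a bound that 40% of probe sets do not reach on average over the 6 arrays, are called dim, and differences that start or end at such a level have an uncertain size.

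**Figure D2:**
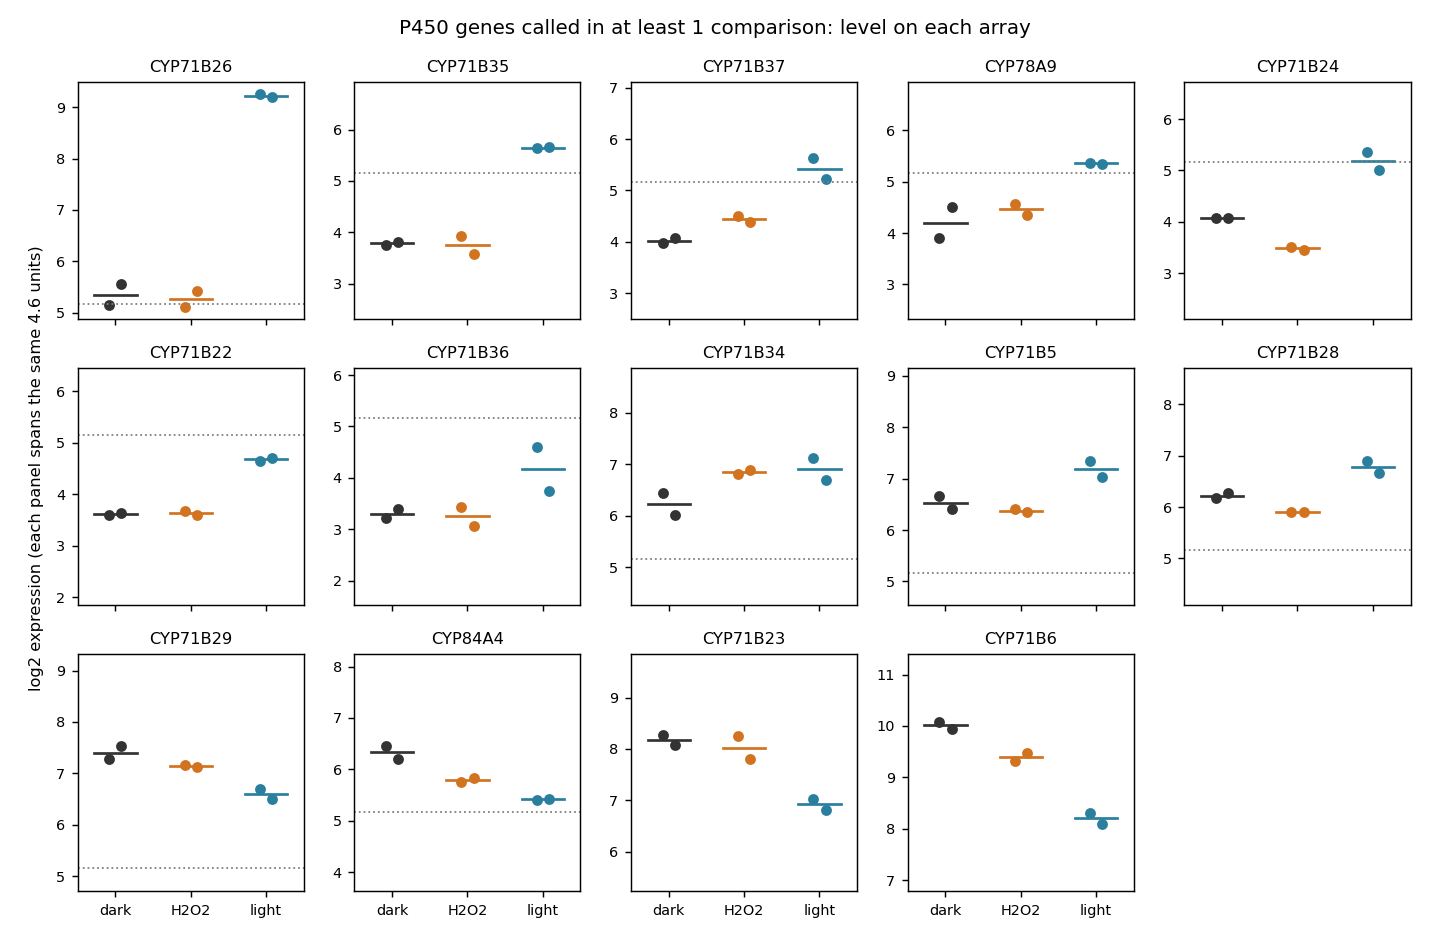
Log2 expression on each array for the 14 P450 genes called in at least 1 comparison, ordered by their difference between light and dark; points are arrays, short lines group means, and the dotted line, where it falls in the panel, is the bound of 5.16 for dim levels. CYP71B26 stands at 9.26 and 9.19 in light and at 5.11 to 5.56 on the other 4 arrays, while CYP71B6 steps down from dark through H2O2 to light.

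Members with a known or proposed role come first. CYP71B6 converts indole-3-acetonitrile, an intermediate of indole defence compounds, to indole-3-carbaldehyde. Its log2 level was 10.08 and 9.93 in the dark, 9.31 and 9.46 with H2O2, and 8.31 and 8.10 in light, so that no pair of groups overlapped. It fell with H2O2 by 0.62 ± 0.14 (SE of the fit, 2 arrays in each group, limma adjusted p = 0.0163). In light it was lower than in the dark by 3.49-fold, a log2 difference of -1.80 ± 0.14 (limma adjusted p = 8.88e-06). Light also lay below H2O2, at -1.18 ± 0.14 (limma adjusted p = 0.00017).

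CYP84A4 encodes an enzyme of arabidopyrone synthesis, a branch that leaves the phenylpropanoid pathway at caffeic aldehyde. Its arrays read 6.46 and 6.20 in the dark, 5.76 and 5.83 with H2O2, and 5.41 and 5.42 in light, again with no overlap between groups. The gene fell with H2O2 by 0.54 ± 0.14 (limma adjusted p = 0.0258) and in light stood at -0.92 ± 0.14 against dark (limma adjusted p = 0.000492). Between light and H2O2 the difference of -0.38, with a 95% interval of -0.69 to -0.07, was not called (limma adjusted p = 0.0574); without the dimmest 40% of probe sets in the fit it was (limma adjusted p = 0.0411). Of 15 other phenylpropanoid genes listed, 2 were measured. HCT, the hydroxycinnamoyltransferase that leads into lignin, fell with H2O2 by 0.53 ± 0.13 and was at -0.59 ± 0.13 in light. CCR2, a cinnamoyl-CoA reductase gene, was called lower in light only against the dark, at -0.70 ± 0.15, and had -0.40 ± 0.15 with H2O2 (limma adjusted p = 0.0937).

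CYP78A9 belongs to the KLUH family of organ growth genes and promotes growth of seeds and fruits. It read 3.90 and 4.51 in the dark, 4.57 and 4.36 with H2O2, and 5.37 and 5.35 in light. The light arrays lay above all others, while dark and H2O2 overlapped. In light it was higher than in the dark by 1.16 ± 0.20 (limma adjusted p = 0.00102) and higher than with H2O2 by 0.89 ± 0.20 (limma adjusted p = 0.00572). With H2O2 against dark the difference was 0.26, with an interval of -0.18 to 0.71. CYP78A9 is dim in the dark and with H2O2. Its call between light and H2O2 ended without H2O2 replicate 2 (limma adjusted p = 0.0586) and with the arrays centred on control RNA (0.0595).

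CYP79A2 makes the aldoxime of phenylalanine, the first step to benzylglucosinolate. It was dim on every array, between 2.93 and 3.13, and its groups overlapped. The log2 differences were 0.06 with H2O2 and 0.05 in light, with intervals of -0.24 to 0.37 and -0.25 to 0.36. Of 19 other glucosinolate genes listed, 4 were measured, and 3 of these were higher in light and none was called with H2O2. BCAT4, the methionine aminotransferase that starts side chain elongation of aliphatic glucosinolates, was higher in light by 3.66 ± 0.30. UGT74C1 and UGT74B1, which add glucose to the core structure, were higher by 3.14 ± 0.20 and 1.63 ± 0.14. AOP3, of side chain modification, had 0.62 ± 0.57 (limma adjusted p = 0.422), with light arrays at 3.56 and 5.91. No probe set of the cytochrome P450 reductases, cytochromes b5 or their reductase, 8 genes that pass electrons to P450 enzymes, named a single gene.

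CYP71B31 oxidises linalool in flowers. It was dim throughout, at 3.19 and 2.86 in the dark, 3.13 and 2.80 with H2O2, and 2.78 and 2.82 in light. No difference was called, and the interval in light against dark ran from -0.61 to 0.15. CYP51G2 resembles the sterol 14-alpha-demethylase gene and is annotated as a transcribed pseudogene. It lay at 4.83 and 4.71 in the dark, 4.55 and 4.70 with H2O2, and 4.44 and 4.55 in light, dim in each group. The light arrays were the lowest, but the difference from dark, -0.28 ± 0.13, was not called (limma adjusted p = 0.124); with the arrays quantile normalised again it was, at -0.37 (limma adjusted p = 0.0474).

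The remaining members are CYP71B genes with no role assigned here, most of them in runs of neighbours. Gene order, here and below, is that of TAIR10.1 in RefSeq and counts only protein-coding genes and genes with a CYP symbol. A run was taken as members with at most 5 other such genes between them, and there were 3 runs. The longest, on chromosome 3, holds 11 members from CYP71B16 to CYP71B37 within 22 genes, of which 18 have a CYP71B symbol. In light, 7 of these 11 members were higher than in the dark and 1 was lower, and with H2O2 1 rose and 1 fell. These are 72.7% in light, beside 48.0% of all probe sets, and 18.2% with H2O2, near the background of 20.5%. A probe set outside the members, which names 2 further CYP71B genes of this run, was lower in light, at -0.74 ± 0.14 against dark. Of the 8 CYP71B members elsewhere, 2 were higher and 2 lower in light, a share near the background, and with H2O2 1 fell, 12.5%. Whether the run differs from the other members was not tested.

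**Figure D3:**
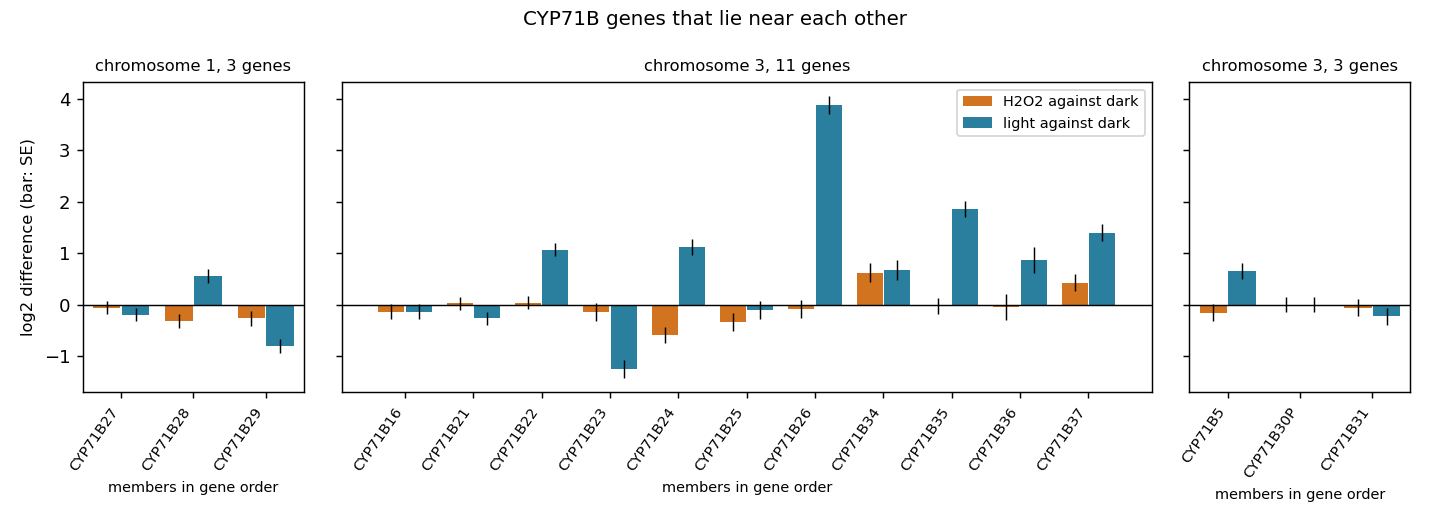
Log2 difference from dark, after H2O2 or growth in light, for CYP71B genes in 3 runs of neighbours, in gene order, with bars of 1 standard error; gaps between genes are not drawn to scale. CYP71B22 and CYP71B23, next to each other, go in opposite directions in light, and CYP71B34 to CYP71B37 are all higher.

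At the start of that run, CYP71B16, at 2.85 to 3.20 over the 6 arrays, and CYP71B21, at 2.86 to 3.18, were dim and called in no comparison. Both light arrays of CYP71B21 lay below the other 4, at -0.26 ± 0.13 against dark (limma adjusted p = 0.122). CYP71B22 read 3.59 and 3.63 in the dark, 3.68 and 3.60 with H2O2, and 4.65 and 4.71 in light. Its light arrays stood apart from the other 4, though all 6 are dim, and it was higher in light than in the dark by 1.07 ± 0.13 (limma adjusted p = 0.000104). CYP71B23, the next gene, read 8.26 and 8.09 in the dark, 8.25 and 7.80 with H2O2, and 7.03 and 6.82 in light. Dark and H2O2 overlapped and light lay below both, at -1.25 ± 0.18 against dark (limma adjusted p = 0.000312) and -1.11 ± 0.18 against H2O2 (limma adjusted p = 0.000897).

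CYP71B24 had 4.08 and 4.07 in the dark, 3.51 and 3.46 with H2O2, and 5.37 and 5.02 in light, with no overlap between any groups. It fell with H2O2 by 0.59 ± 0.15 (limma adjusted p = 0.0238) and was higher in light by 1.12 ± 0.15 (limma adjusted p = 0.000228). Light exceeded H2O2 by 1.71 ± 0.15, or 3.27-fold (limma adjusted p = 2.15e-05). The dark and H2O2 levels are dim, and the fall with H2O2 was not called without any 1 of the 4 arrays. Those fits leave 1 array in a group, and the difference stayed at -0.61 to -0.57 in them. With the arrays centred on control RNA it turned to 0.08. CYP71B25 ranged from 3.29 to 3.96, dim and not called, with -0.35 ± 0.17 with H2O2 (limma adjusted p = 0.203).

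CYP71B26 read 5.14 and 5.56 in the dark, 5.11 and 5.42 with H2O2, and 9.26 and 9.19 in light. Dark and H2O2 overlapped, and the light arrays lay far above both. The means of 5.35 in the dark and 5.27 with H2O2 are just above the bound of 5.16 for dim levels. In each of these groups 1 array lies below it, so the size of the rise is uncertain. In light it was higher than in the dark by 3.87 ± 0.18 (limma adjusted p = 4.11e-07), the rise ranked 136 among all 22746 probe sets, and higher than with H2O2 by 3.96 ± 0.18 (limma adjusted p = 5.87e-07). The interval of its difference with H2O2 against dark ran from -0.48 to 0.31.

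CYP71B34, CYP71B35, CYP71B36 and CYP71B37 stand next to each other, and all 4 were higher in light. CYP71B34 read 6.44 and 6.01 in the dark, 6.80 and 6.89 with H2O2, and 7.12 and 6.69 in light, so that H2O2 and light overlapped above the dark. It rose by 0.62 ± 0.19 with H2O2 (limma adjusted p = 0.0499, at the threshold and lost without 3 of the 4 arrays in turn) and by 0.68 ± 0.19 in light (limma adjusted p = 0.016). Light and H2O2 differed by 0.06, with an interval of -0.38 to 0.49.

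CYP71B35 read 3.76 and 3.81 in the dark, 3.93 and 3.59 with H2O2, and 5.64 and 5.65 in light, which stood clear of the rest. The difference between light and dark was 1.86 ± 0.15, or 3.63-fold (limma adjusted p = 8.89e-06). CYP71B37 read 3.98 and 4.07 in the dark, 4.51 and 4.39 with H2O2, and 5.62 and 5.22 in light, with no overlap. It was higher in light by 1.40 ± 0.16 (limma adjusted p = 8.44e-05); with H2O2 the 0.43 ± 0.16 was not called (limma adjusted p = 0.0949). CYP71B36 read 3.22 and 3.39 in the dark, 3.43 and 3.07 with H2O2, and 4.59 and 3.74 in light. Its 2 light arrays lay apart from each other, and the 0.86 ± 0.26 in light was called (limma adjusted p = 0.0205). CYP71B35 and CYP71B37 are dim in the dark and with H2O2, and CYP71B36 in every group.

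A second run lies on chromosome 1. CYP71B28 read 6.18 and 6.27 in the dark, 5.91 and 5.90 with H2O2, and 6.90 and 6.66 in light, with H2O2 lowest and no overlap. It was higher in light than in the dark by 0.55 ± 0.14 (limma adjusted p = 0.00818) and than with H2O2 by 0.87 ± 0.14 (limma adjusted p = 0.000817). With H2O2 the difference of -0.32 ± 0.14 was not called (limma adjusted p = 0.14); it was with the arrays quantile normalised again, at -0.44 (limma adjusted p = 0.0431). CYP71B29, its neighbour, read 7.29 and 7.52 in the dark, 7.16 and 7.11 with H2O2, and 6.70 and 6.50 in light, stepping down without overlap. It was lower in light than in the dark, at -0.81 ± 0.14 (limma adjusted p = 0.00134), and than with H2O2, at -0.54 ± 0.14 (limma adjusted p = 0.0152). CYP71B27, the first member of the run and annotated as a transcribed pseudogene, was dim at 3.07 to 3.32 and not called, with -0.20 ± 0.13 in light against dark (limma adjusted p = 0.236).

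In the last run, on chromosome 3, CYP71B5 read 6.67 and 6.40 in the dark, 6.41 and 6.35 with H2O2, and 7.34 and 7.03 in light. Light lay above both other groups, which overlapped. Its difference in light was 0.65 ± 0.16 against dark (limma adjusted p = 0.00782) and 0.80 ± 0.16 against H2O2 (limma adjusted p = 0.00309). CYP71B30P, named as a pseudogene but annotated as protein-coding, stands next to it. It stayed between 3.00 and 3.23 on all 6 arrays, with differences of 0.0005 with H2O2 and 0.0001 in light. CYP71B38, which has no member near it, read 3.35 and 3.65 in the dark, 3.51 and 3.95 with H2O2, and 3.20 and 3.34 in light. It was dim and not called, with -0.46 ± 0.18 between light and H2O2 (limma adjusted p = 0.0697); that difference was called without H2O2 replicate 1 (limma adjusted p = 0.0326).

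Among 7 pairs of members with no gene between them in the gene order used, both were called in light in 5. Over all probe sets, 48.0% were called in that comparison, 23.0% higher and 25.0% lower. That is a share of single probe sets, not of pairs, so the 2 do not compare directly. Some genes stand in more than 1 pair, so the pairs are not independent. In 3 of the 5 pairs, all within CYP71B34 to CYP71B37, the neighbours went the same way. In the other pairs, CYP71B22 with CYP71B23 and CYP71B28 with CYP71B29, the first was higher and the second lower. The 9 members called in no comparison were all dim, between 2.78 and 4.83 on every array, and their sizes of difference are uncertain for that reason. Whether a probe set that names 1 gene also binds RNA of a close relative was not tested, and the values of neighbouring CYP71B genes are uncertain to that extent.

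**Figure D4:**
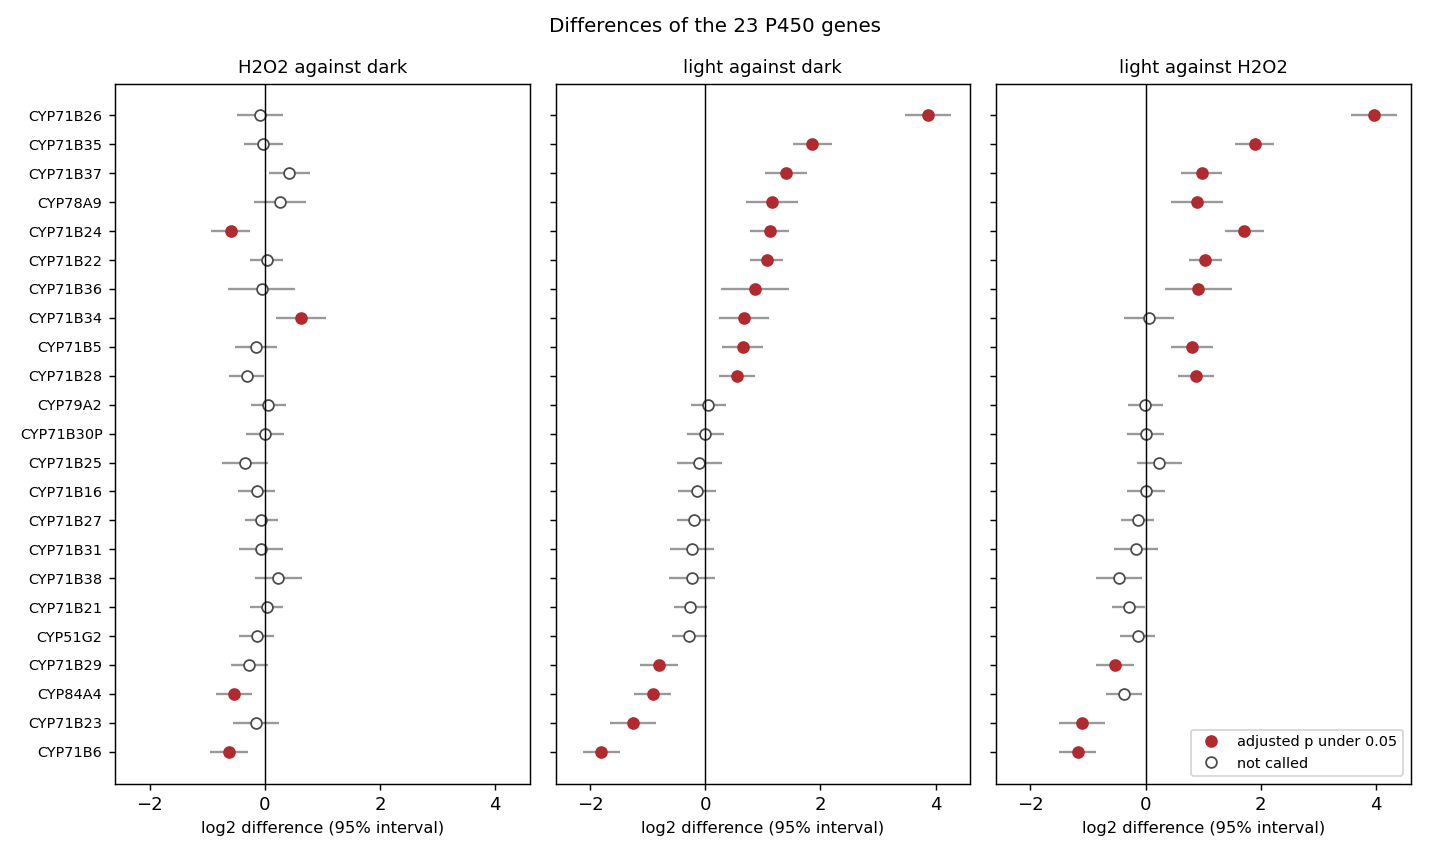
Log2 difference of each of the 23 P450 genes in the 3 comparisons, ordered by light against dark; lines are 95% intervals from the limma fit, filled points have an adjusted p under 0.05 and open points were not called. Differences with H2O2 against dark run from -0.62 to 0.62, and those in light against dark from -1.80 to 3.87.

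The calls with H2O2 were the least stable, and each ended when some single array was left out. Such a fit leaves 1 array in a group, so a lost call does not by itself show a changed difference. For CYP71B6 (limma adjusted p 0.0575 to 0.107) and CYP84A4 (0.0962 to 0.139) the call was lost without H2O2 replicate 1, H2O2 replicate 2 or dark replicate 1. CYP71B34 was lost without H2O2 replicate 1, H2O2 replicate 2 or dark replicate 2 (0.153 to 0.276), and with quantile normalisation again (0.091). In light against dark, 10 of the 14 calls held whichever array was left out. CYP71B5 was lost without dark replicate 2 (0.0619) or light replicate 1 (0.0558), CYP71B34 without the same arrays (0.12 and 0.11), and CYP71B28 without light replicate 1 (0.056). CYP71B36 was lost without dark replicate 1 (0.0946), dark replicate 2 (0.0513) or light replicate 1 (0.119), and its difference was 0.43 without the last. Against H2O2, CYP71B36 was lost without H2O2 replicate 2 (0.152) or light replicate 1 (0.0989), and CYP71B29 without H2O2 replicate 1, H2O2 replicate 2 or light replicate 2 (0.0637 to 0.0868).

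Calls and some directions also depend on how the arrays are scaled. Control RNA for the hybridisation, read by 18 probe sets, stood lower on H2O2 and light arrays than on dark ones. Its mean log2 level was 9.68 and 9.49 against 10.35. Centring the arrays on these controls moved the median of all probe sets by 0.67 with H2O2 and 0.86 in light. The SE of each member was then 0.416, against 0.13 to 0.26 as deposited. A call lost under this centring does not by itself show a smaller difference. The members then split 1 higher and 0 lower with H2O2, and 10 higher and 0 lower in light. Of the 22746 probe sets tested, 3288 were then called higher and 53 lower with H2O2, and 8060 and 705 in light. Most calls over all probe sets were thus rises too. The falls with H2O2 turned to 0.08 for CYP71B24, 0.05 for CYP71B6 and 0.13 for CYP84A4, and in light CYP71B29 turned to 0.06, none of them called. CYP71B6, CYP71B23 and CYP84A4 kept a negative sign in light, at -0.94, -0.39 and -0.06, and were not called (limma adjusted p = 0.0579, 0.412 and 0.913). In light against H2O2 the members split 5 higher and 0 lower, where 2289 of all tested probe sets were called higher and 1081 lower. There CYP71B5 (limma adjusted p = 0.0976), CYP71B28 (0.0666), CYP71B36 (0.0525) and CYP78A9 stayed higher without being called, and CYP71B6 (0.0995), CYP71B23 (0.145) and CYP71B29 (0.847) stayed lower without being called. Those higher had larger differences than as deposited, 1.08 against 0.89 for CYP78A9, and those lower had smaller ones, -0.99 against -1.18 for CYP71B6. Falls are therefore given relative to the bulk of the transcripts on each array.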

How the data were processed

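Per the labels, biotin-labelled RNA of whole seedlings was hybridised, with 1 colour per array. The authors deposited 1 table of 22810 probe sets on 6 arrays; its log2 unit is inferred from a range of 2.22 to 14.23 and from RMA, which the submitters' processing notes name with limma. The sources used here name no version, chip definition or setting. Array medians were 5.93 to 6.07; arrays give no depth.

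Here 64 control probe sets were set aside and 22746 tested without a filter. Names came from the platform annotation (13513 probe sets name 1 gene, 503 several, 8730 are unnamed here), updated through RefSeq (TAIR10.1); no coordinates are given, since no build is named for the arrays. Groups and replicate numbers came from the titles. One model over the 6 arrays was fitted in R 4.3.3 with limma 3.58.1 (functions lmFit, eBayes), with 3 residual degrees of freedom and 5.84 from the prior; its 3 contrasts were tested 2-sided, and the steps were tested on simulated data. Intervals are 95%.

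Alternatives were leaving out dim probe sets, centring on 18 hybridisation control probe sets, quantile normalisation again, a replicate block, fits of 2 groups, a trended prior and leaving out each array. Members called, with a listed pathway or next to another member were named with values; each pathway list names its 3 largest called genes. Members and lists were chosen with earlier results of these data known. Of the pathway lists, those of phenylpropanoids, glucosinolates and electron donors, which touch a member, were used.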

Additional observations from a re-analysis of the deposited data

Results flagged for a closer look

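A probe set outside the 23 members carried a signal that differed between groups. It names 2 further CYP71B genes of the long run on chromosome 3, which it cannot tell apart, and so was left out of the members. Its log2 level was 8.41 and 8.28 in the dark, 8.33 and 8.47 with H2O2, and 7.71 and 7.51 in light. It was lower in light than in the dark, at -0.74 ± 0.14 (limma adjusted p = 0.00198), and lower than with H2O2, at -0.79 ± 0.14 (limma adjusted p = 0.00175), while H2O2 against dark had 0.05 ± 0.14 and was not called.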

How the results depend on the processing

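Results named here are the counts of called probe sets and members, the members' median differences, and the single members. Without 1 array, H2O2 against dark had 2135 to 3131 called probe sets against 4656, 0 to 1 members higher, 0 to 2 lower, and a median of -0.10 to -0.033. Light against dark had 6 to 10 members higher and a median of -0.094 to 0.129, and light against H2O2 7 to 9 higher, 2 to 3 lower and a median of -0.069 to 0.101. Without the dimmest 40% of probe sets, which leaves 8 members, 4 were higher in light against dark and 3 against H2O2, fewer since fewer were tested, and the medians were -0.212 with H2O2, -0.125 in light and -0.162 between them. Centred on the hybridisation controls, the counts lower were 0 in each comparison, those higher against H2O2 were 5, and the medians 0.604, 0.861 and 0.194; light against H2O2 had 3370 called probe sets against 8981. Under that centring 98.4% of called probe sets were higher with H2O2 (60.0% as deposited), 92.0% in light (48.0%) and 67.9% between them (44.2%). The reversed members were CYP71B24 (0.078), CYP71B6 (0.047) and CYP84A4 (0.132) with H2O2, and CYP71B29 (0.055) in light; the cause was not tested. Quantile normalisation again left 0 members higher with H2O2, since CYP71B34 passed the threshold no longer. Fits of 2 groups or with a trended prior changed no call of a member. Replicate numbers are not stated to pair samples, and deviations of same-numbered arrays correlated at -0.032, 0.069 and -0.002; with a replicate block the counts were 4590, 10905 and 8972 probe sets, and of the members' calls only CYP71B38 between light and H2O2 was gained (-0.463). Each member has 1 probe set, so no other could stand for it.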
